A study of Mus musculus with 9 samples.

Results

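The miR-99, miR-100 and miR-125 families were followed in small extracellular vesicles of mouse serum. The 8 members are the mature mouse microRNAs mmu-miR-99a-5p, mmu-miR-99b-5p, mmu-miR-99b-3p, mmu-miR-100-5p, mmu-miR-125a-5p, mmu-miR-125a-3p, mmu-miR-125b-5p and mmu-miR-125b-2-3p, written below without the species prefix. They were chosen by name from the table of known microRNAs, out of 1169 listed microRNAs, of which 1064 were known and 105 predicted. All 8 passed the filter on low counts, as did 414 of the 1169.

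Small RNA was sequenced from 9 libraries in 3 groups of 3. Chow WT are wild-type mice fed chow. HFD WT are labelled wild-type mice fed a high fat diet, and HFD Sirt3 AKI are mice on the same diet with adipose-specific overexpression of Sirt3, a mitochondrial deacetylase. The series title names male mice. Sirt3 mRNA was not measured, so the overexpression could not be checked in these libraries. The labels give no age for any group and do not name the promoter that restricts the overexpression to adipose tissue. The library names of HFD WT carry the code SIRT3CKI, those of HFD Sirt3 AKI carry SIRT3CKIcr and those of chow WT carry WT. Diet and mouse line can therefore not be told apart between chow WT and HFD WT. Vesicles were collected from whole serum, so the tissue that released them is not given by the design. The labels list separate samples but not separate animals, so p-values measure the spread between these samples, which may be technical.

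Animal microRNAs are cut from a hairpin precursor that yields a 5p and a 3p arm. One arm is usually loaded into an Argonaute protein and directs the repression of mRNAs that pair with its bases 2 to 8, the seed, while the other arm is mostly degraded. In mammals the miR-99/100 and miR-125 families are encoded beside let-7 genes in conserved clusters. The miR-99/100 family is known for targeting mTOR and the IGF1 receptor, which act in insulin and growth signalling, and miR-125 for targeting LIN28, the let-7 inhibitor, and for its roles in blood cell formation and in macrophages.

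The mature 5p sequences are shown because their seeds define the families and because some differ by so few bases that reads could be assigned to a relative. Sequences are from RefSeq (GRCm38.p6), written 5′ to 3′, with the seed in capitals. All 8 members had an entry.
miR-99a-5p: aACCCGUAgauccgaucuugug
miR-99b-5p: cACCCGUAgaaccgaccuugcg
miR-100-5p: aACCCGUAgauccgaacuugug
miR-125a-5p: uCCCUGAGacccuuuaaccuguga
miR-125b-5p: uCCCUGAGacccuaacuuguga
miR-351-5p: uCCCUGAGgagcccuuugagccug

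The first 3 share the seed ACCCGUA, which no other of the 1679 mature microRNAs in the RefSeq table holds. Counted from the 5′ end of miR-99a-5p, miR-100-5p differs from it by U16A alone, so reads of these 2 could be split between them by the authors' counting and their separate levels are uncertain. From miR-99a-5p, miR-99b-5p differs at 4 positions, A1C, U11A, U16C and U21C. The seed CCCUGAG is held by miR-125a-5p and miR-125b-5p, which share their first 13 bases, and by miR-351-5p, which is no member of the set but had counts. It is also listed for miR-6367 and miR-6394, which are not in the count table.

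The 3p arms are shown because the arm ratios below rest on them, and they share no seed with the 5p arms.
miR-99b-3p: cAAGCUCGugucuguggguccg
miR-99a-3p: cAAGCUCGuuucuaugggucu
miR-125a-3p: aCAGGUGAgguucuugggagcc
miR-125b-2-3p: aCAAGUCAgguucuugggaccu

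Of these, miR-99b-3p shares its seed AAGCUCG with miR-99a-3p, which was counted but is not among the 8. The seeds of miR-125a-3p and miR-125b-2-3p are each held by no other microRNA in the RefSeq table.

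The members come from 3 let-7 clusters, placed here by RefSeq's positions of the mature arms on GRCm38.p6, plus strand, and by the GENCODE vM21 annotation. The authors' files give no coordinates for known microRNAs. The first, at chr17:17830194-17830876, holds miR-99b, let-7e and miR-125a within 683 bases. Its miR-99b and let-7e lie in an intron and miR-125a in an exon of Spaca6, a protein-coding gene on the same strand. The next, at chr16:77598940-77646339, holds miR-99a, let-7c-1 and miR-125b-2 over 47400 bases in introns of the noncoding gene Mir99ahg, with Gm11146 on the opposite strand of miR-99a and let-7c-1. The last, at chr9:41531437-41582001, holds miR-100, let-7a-2 and miR-125b-1 over 50565 bases in introns of the noncoding genes 3110039I08Rik and Gm49317. There miR-100 also lies in an exon of Gm48742 on the opposite strand, and miR-125b-1 in an exon of Gm28119. Since miR-125b-5p is identical from miR-125b-1 and miR-125b-2, its counts cannot be assigned to the chromosome 9 or the chromosome 16 locus.

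The chow WT libraries held 225002 to 306974 counts, those of HFD WT 1953935 to 2162009 and those of HFD Sirt3 AKI 1729416 to 2973432. Levels are given as normalised CPM, the counts per 1000000 of a library total after TMM scaling (a trimmed mean of log ratios between libraries), as mean ± SD of 3 libraries. TMM factors averaged 1.31 for chow WT, 0.787 for HFD WT and 0.978 for HFD Sirt3 AKI. Scaling by library totals instead moved the median log2 fold change over the tested set by -0.72 for HFD WT over chow WT, by 0.29 for HFD Sirt3 AKI over HFD WT and by -0.41 for HFD Sirt3 AKI over chow WT. The coefficient of variation between libraries estimated by edgeR ran from 10.4% for chow WT to 40.2% for HFD Sirt3 AKI. A batch label places HFD Sirt3 AKI replicates 2 and 3 apart from the other 7 libraries. A member was called changed at an edgeR adjusted p (Benjamini-Hochberg, 414 tests) below 0.05.

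In HFD WT relative to chow WT the members did not move together. The 5p arms of miR-99b, miR-125a and miR-125b rose, and miR-100-5p and the 3p arms of miR-99b and miR-125b-2 fell, so miR-99b-5p and miR-100-5p, which share a seed, were called in opposite directions. The test thus called 3 of 8 members higher and 3 lower, while 37.7% of all tested microRNAs were called, 21.5% higher and 16.2% lower. The median log2 fold change of the 8 was 0.33, against 0.15 over all tested microRNAs. With library totals 1 member was called higher and 4 lower, where 39.4% of all were called, 4.83% higher and 34.5% lower, and the median was -0.40 against -0.57 over all. The ranges of 6 of the 8 did not overlap between these groups, as for 54.8% of all tested microRNAs.

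**Figure D1:**
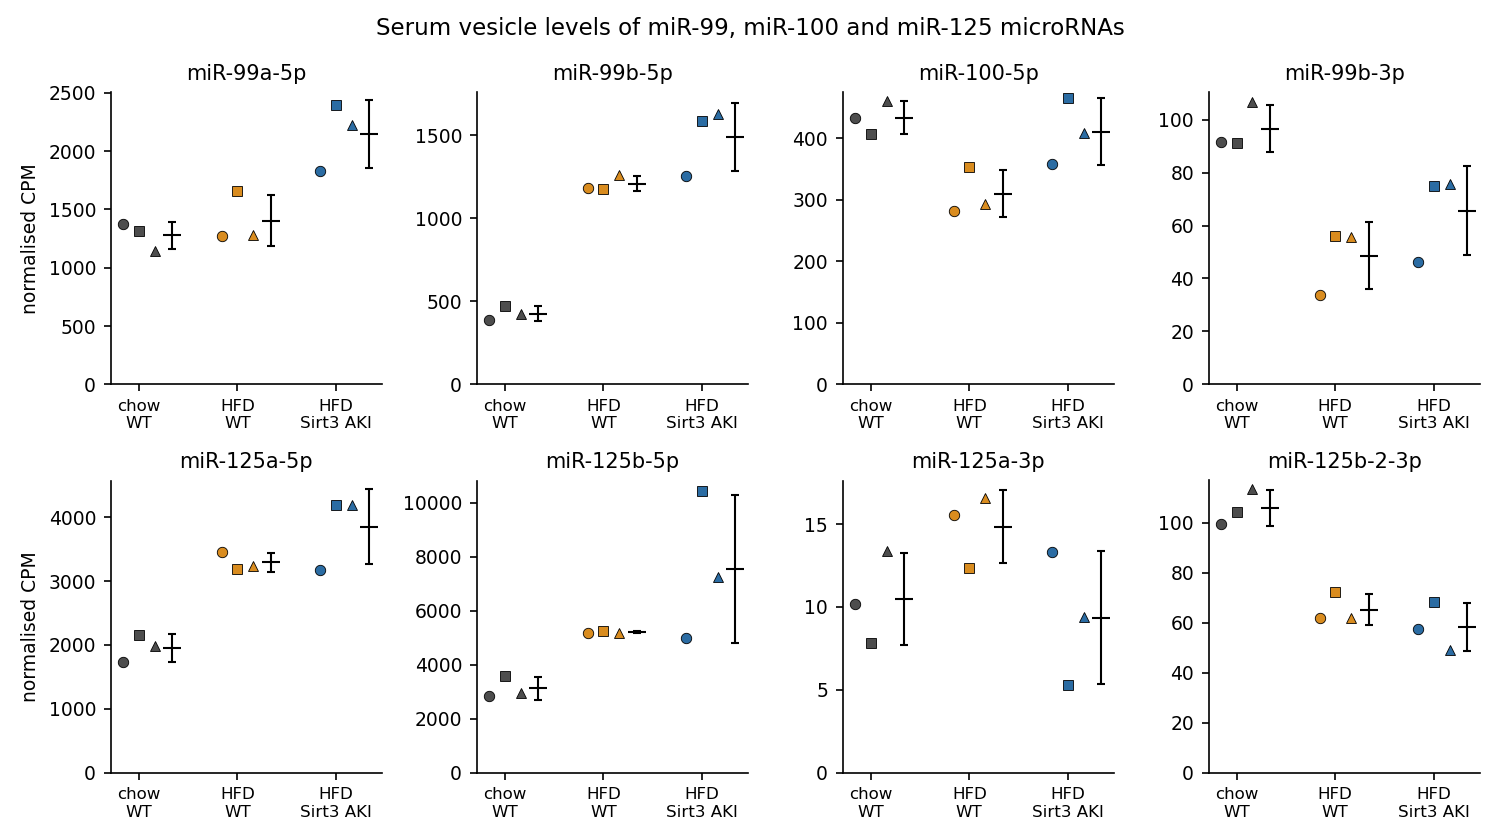
Normalised CPM of the 8 members in each library (circle, replicate 1; square, replicate 2; triangle, replicate 3) in the chow group, HFD WT and HFD Sirt3 AKI, with mean and SD beside each group; each panel has its own linear axis from 0. The 3 chow WT values of miR-99b-5p lie between 385 and 472, below all 6 values of the high fat diet groups.

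Among the members miR-99b-5p moved most. Its level was 385, 472 and 421 normalised CPM in the chow WT libraries, 1186, 1179 and 1263 in HFD WT, and 1256, 1587 and 1630 in HFD Sirt3 AKI. All 6 high fat diet libraries stood above all 3 of chow WT. The level was 426 ± 43.8 in the chow group and 1209 ± 46.6 in HFD WT (SD, n = 3), a fitted 2.84-fold rise (log2 fold change 1.51, SE 0.14, edgeR adjusted p = 1.52e-05). Of the 89 microRNAs called higher in this comparison its adjusted p was the 6th smallest and its fold change the 16th largest. With library totals the log2 fold change was 0.77 (SE 0.16, edgeR adjusted p = 0.00324), and it was called in each of 19 alternative analyses, which include leaving out each library.

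The other members with this seed did not move with it. Levels of miR-99a-5p were 1374, 1314 and 1146 normalised CPM in the chow group and 1274, 1655 and 1278 in HFD WT, and these ranges overlapped. Its log2 fold change was 0.13 (SE 0.15, edgeR adjusted p = 0.542), but -0.60 with library totals, where it was called lower (adjusted p = 0.0166). Both values lay near the medians over all tested microRNAs, 0.15 and -0.57. The level of miR-100-5p was 433, 407 and 461 normalised CPM in the chow group and 282, 354 and 294 in HFD WT, with every HFD WT library below every chow WT library. It fell by 0.48 on the log2 scale (SE 0.15, edgeR adjusted p = 0.0294). That call was lost without a filter on low counts (-0.28) and without chow WT replicate 1 (-0.47), 2 (-0.50) or 3 (-0.44), HFD WT replicate 1 (-0.39) or 3 (-0.44), or HFD Sirt3 AKI replicate 3 (-0.47), with edgeR adjusted p from 0.0601 to 0.583.

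The ratio of counts between 2 members of 1 library does not depend on the scaling. For miR-99b-5p to miR-99a-5p the log2 ratio was -1.58 ± 0.22 in the chow group and -0.20 ± 0.25 in HFD WT (SD, n = 3), a difference of 1.38. That of miR-99a-5p to miR-100-5p was 1.55 ± 0.21 and 2.17 ± 0.053, a difference of 0.62, although these 2 sequences differ by 1 base. Neither pair of ranges overlapped. The exact two-sided permutation test gave p = 0.1 for both, the smallest possible with 3 libraries against 3, and p = 0.142 adjusted over 17 ratios and shares, so no ratio could pass the threshold in this design.

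The makeup of the ACCCGUA seed differed between the groups. Of the counts with this seed, miR-99b-5p took 17.6%, 21.5% and 20.8% in the chow WT libraries and 43.3%, 37.0% and 44.6% in HFD WT, with no overlap. Its mean share was 19.9 ± 2.10% and 41.6 ± 4.05% (SD, n = 3; p = 0.1 by exact permutation, which is as low as the design allows). The mean share of miR-99a-5p was 59.7 ± 3.09% and 47.8 ± 3.62%, and that of miR-100-5p 20.4 ± 2.15% and 10.6 ± 0.444%. The summed level of the 3 was 2138 ± 95.4 and 2921 ± 236 normalised CPM.

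The miR-125 5p arms were the most abundant members. Normalised CPM of miR-125b-5p was 2827, 3589 and 2946 in the chow group and 5184, 5253 and 5164 in HFD WT. Among the 1064 known microRNAs it ranked 38th by mean level in the chow group and 32nd in HFD WT. It rose by 0.74 on the log2 scale (SE 0.22, edgeR adjusted p = 0.0225). The related miR-125a-5p had 1728, 2162 and 1984 normalised CPM in the chow group and 3459, 3186 and 3235 in HFD WT, and rose by 0.75 (SE 0.14, edgeR adjusted p = 0.00151). All 3 HFD WT libraries stood above all 3 of chow WT for both.

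Both increases rested on the scaling. With library totals miR-125a-5p had a log2 fold change of 0.021 (edgeR adjusted p = 0.935) and miR-125b-5p one of 0.0056 (edgeR adjusted p = 0.995). Relative to the median over all tested microRNAs, miR-125a-5p stood at 0.60 with TMM and at 0.59 with library totals. For miR-125b-5p these values were 0.58 and 0.58. Of all counts, miR-125a-5p took 0.256 ± 0.0317% in the chow group and 0.260 ± 0.0248% in HFD WT (SD of 3 libraries, exact permutation p = 0.9). The call for miR-125b-5p was also lost without chow WT replicate 1 (0.68) or 3 (0.70) and without HFD WT replicate 2 (0.74) or 3 (0.75), with edgeR adjusted p from 0.0522 to 0.0874. The ratio of the 2 arms to each other was close in both groups. The log2 ratio of miR-125a-5p to miR-125b-5p was -0.67 ± 0.087 in the chow group and -0.66 ± 0.070 in HFD WT (SD of 3 libraries, exact permutation p = 0.9).

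The third microRNA with the seed CCCUGAG, miR-351-5p, rose by 0.68 (SE 0.17, edgeR adjusted p = 0.00849), from 142 ± 8.07 to 227 ± 30.4 normalised CPM (SD, n = 3), and had a log2 fold change of -0.047 with library totals. The 3 microRNAs together had 5220 ± 619 normalised CPM in the chow group and 8721 ± 158 in HFD WT. In contrast with the ACCCGUA seed, the share of miR-125b-5p among them was 59.7 ± 1.40% in the chow group and 59.6 ± 1.31% in HFD WT.

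The 3p arms had lower levels than their 5p partners, and 2 of them fell. Normalised CPM of miR-99b-3p was 91.8, 91.3 and 106.9 in the chow group and 33.9, 56.0 and 55.7 in HFD WT, from 32 to 86 counts per library. It fell by 0.99 on the log2 scale (SE 0.29, edgeR adjusted p = 0.0189) and by 1.73 with library totals. That call was lost without a filter (-0.78), without chow WT replicate 2 (-1.005) or 3 (-0.91), and without HFD WT replicate 1 (-0.76), with edgeR adjusted p of at most 0.0796.

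A fall of 0.69 (SE 0.21, edgeR adjusted p = 0.0225) was found for miR-125b-2-3p, which had 99.4, 104.3 and 113.6 normalised CPM in the chow group and 61.7, 72.3 and 61.7 in HFD WT. For both of these 3p arms every HFD WT library stood below every chow WT library. The call for miR-125b-2-3p was lost without a filter (-0.49), without chow WT replicate 2 (-0.68) or 3 (-0.64) and without HFD WT replicate 1 (-0.63) or 3 (-0.65), with edgeR adjusted p from 0.0657 to 0.411. The scarcest member, miR-125a-3p, had 3 to 4 counts per chow WT library and 19 to 28 in HFD WT, or 10.5 ± 2.78 and 14.8 ± 2.20 normalised CPM (SD, n = 3). Its log2 fold change was 0.52 (SE 0.48, edgeR adjusted p = 0.448) and -0.20 with library totals.

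**Figure D2:**
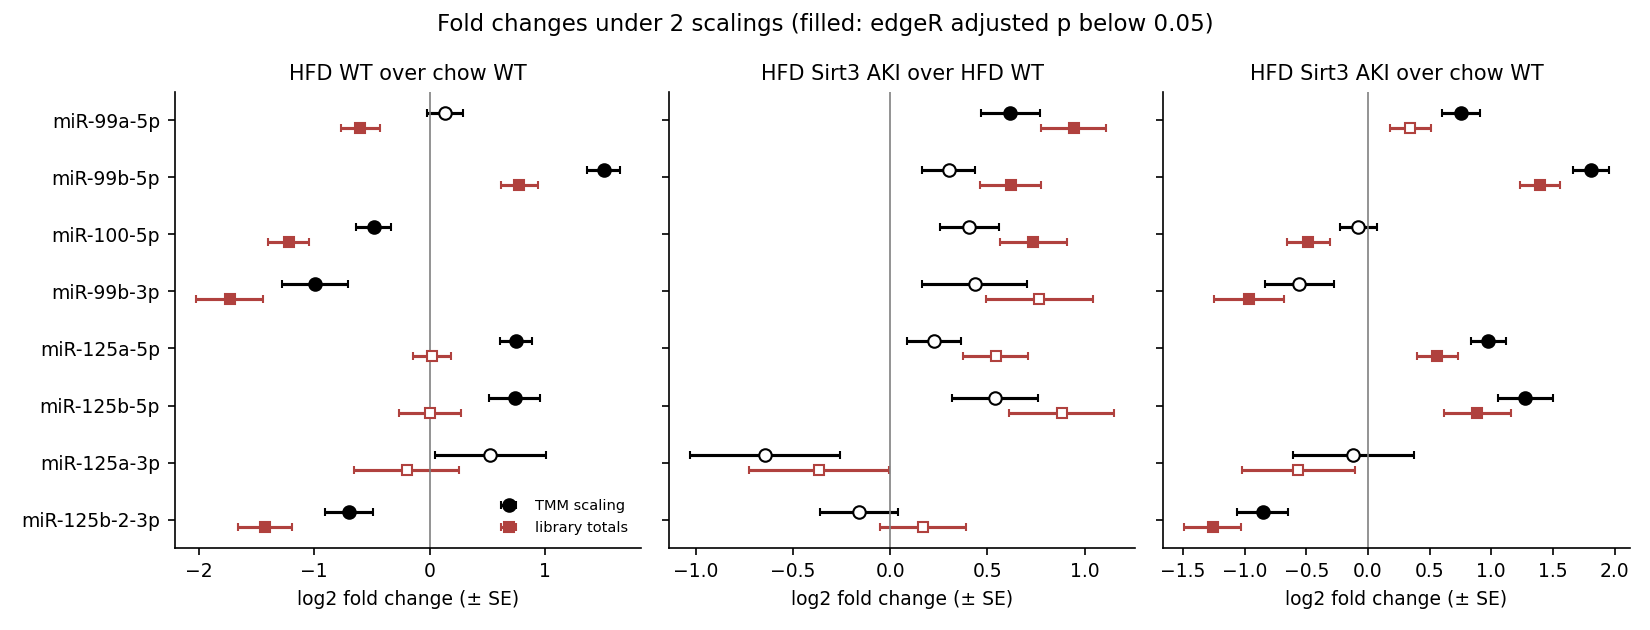
Log2 fold change ± SE of the 8 members in the 3 comparisons, with TMM scaling (black circles) and with library totals (red squares); filled symbols mark an edgeR adjusted p below 0.05. In HFD WT over chow WT miR-99b-5p is at 1.51 and 0.77 and filled under both scalings, whereas miR-125a-5p and miR-125b-5p are filled under TMM alone.

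The 3p to 5p ratio of miR-99b fell more from chow WT to HFD WT than that of nearly any other precursor. The 3p arm made up 19.3%, 16.2% and 20.3% of the counts of both arms in the chow WT libraries. Its share was 2.78%, 4.53% and 4.23% in HFD WT, and 3.54%, 4.52% and 4.45% for HFD Sirt3 AKI. The lowest exact 95% binomial bound in the chow group was 11.6% (35 of 216 counts) and the highest in HFD WT was 5.57% (86 of 1897 counts). Such intervals cover counting error only. The mean share was 18.6 ± 2.11% in the chow group and 3.85 ± 0.936% in HFD WT (SD, n = 3).

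Arm ratios were tested with limma on log2((3p + 0.5)/(5p + 0.5)) over 116 precursors with both arms tested, of which 33.6% were called in HFD WT over chow WT, 18.1% higher and 15.5% lower. For miR-99b the change was -2.54 (SE 0.26, limma adjusted p = 2.94e-04), the second lowest of the 116, while some other precursors rose by a larger amount. The miR-99b change stayed called in each alternative, between -2.68 and -2.32 when single libraries were left out. In HFD Sirt3 AKI over HFD WT the difference was 0.14 (SE 0.26, limma adjusted p = 0.804), and -0.096 within the larger batch.

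The miR-125a precursor did not show this difference. Its 3p arm made up 0.587%, 0.361% and 0.669% of counts in the chow group and 0.448%, 0.387% and 0.510% in HFD WT, and the ranges overlapped. For HFD Sirt3 AKI it made up 0.418% in replicate 1, 0.126% in replicate 2 and 0.224% in replicate 3. The change from chow WT to HFD WT was -0.38 (SE 0.42, limma adjusted p = 0.558). It was -1.19 and called with 5 added to each arm in place of 0.5 (limma adjusted p = 0.00934), a choice that weighs on the 3 to 4 counts of the 3p arm in the chow group. The exact 95% intervals of the share reached from 0.0744% to 1.70% over the chow WT libraries and from 0.233% to 0.752% over those of HFD WT, so these intervals overlap.

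In HFD Sirt3 AKI the miR-125a ratio was lower than in HFD WT by 0.96 on the log2 scale (SE 0.42, limma adjusted p = 0.275). It was lower than in the chow group by 1.34 (SE 0.42, limma adjusted p = 0.0376), where the ranges overlapped and 32.8% of the precursors were called, 19.0% higher and 13.8% lower. That call was lost with batch as a covariate and within the larger batch (-0.49 in each), in a fit of these 2 groups alone (-1.34) and without any single library other than chow WT replicate 2 and HFD Sirt3 AKI replicate 1. With single libraries left out the lost values ran from -1.34 to -0.93, the latter without HFD Sirt3 AKI replicate 2.

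**Figure D3:**
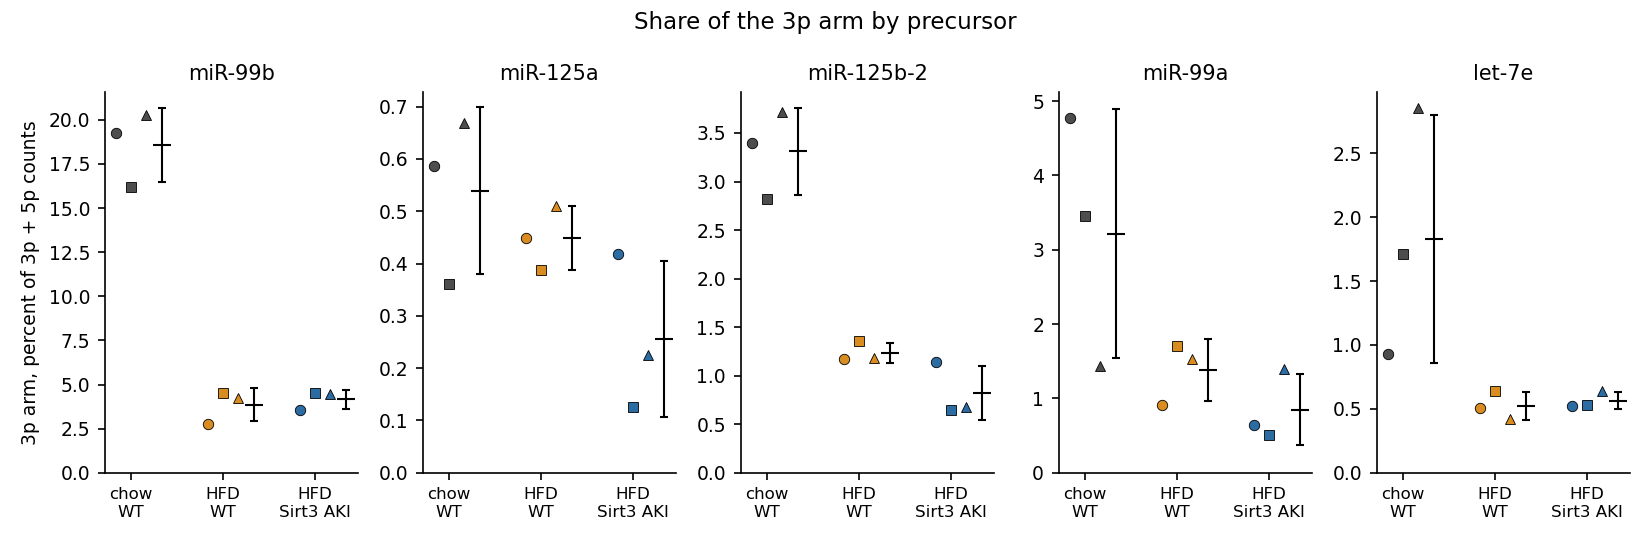
Share of the 3p arm among the counts of both arms, in percent, for 4 precursors of the members and for let-7e, in each library (circle, replicate 1; square, replicate 2; triangle, replicate 3) with mean and SD; each panel has its own axis from 0. The chow WT libraries of miR-99b sit between 16.2% and 20.3%, and all 6 others between 2.78% and 4.53%.

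Of the other precursors with both arms tested, miR-125b-2 and let-7e had a lower 3p share in HFD WT, and miR-99a and miR-125b-1 did not pass the test. The miR-125b-2 share of the 3p arm was 3.40%, 2.82% and 3.71% in the chow group and 1.18%, 1.36% and 1.18% in HFD WT, without overlap (log2 change -1.46, SE 0.27, limma adjusted p = 0.00363). Because miR-125b-5p also comes from miR-125b-1, this ratio mixes 2 loci in its denominator. Between miR-99b and miR-125a in the same cluster, let-7e had a 3p share of 0.926%, 1.71% and 2.86% in the chow group and 0.506%, 0.641% and 0.424% in HFD WT (log2 change -1.83, SE 0.36, limma adjusted p = 0.00483), from 2 to 5 counts of the 3p arm per chow WT library. The miR-99a share was 3.22 ± 1.68% and 1.38 ± 0.418% (SD, n = 3). Its log2 change of -1.18 did not pass the test (SE 0.53, limma adjusted p = 0.123), but did without chow WT replicate 3 (-1.65). For miR-125b-1 the log2 change was 0.22, in the opposite direction (limma adjusted p = 0.762), from 1 to 3 counts of its 3p arm per chow WT library. The other arm of miR-100, miR-100-3p, had 1 count in all 9 libraries together and gave no ratio.

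**Figure D4:**
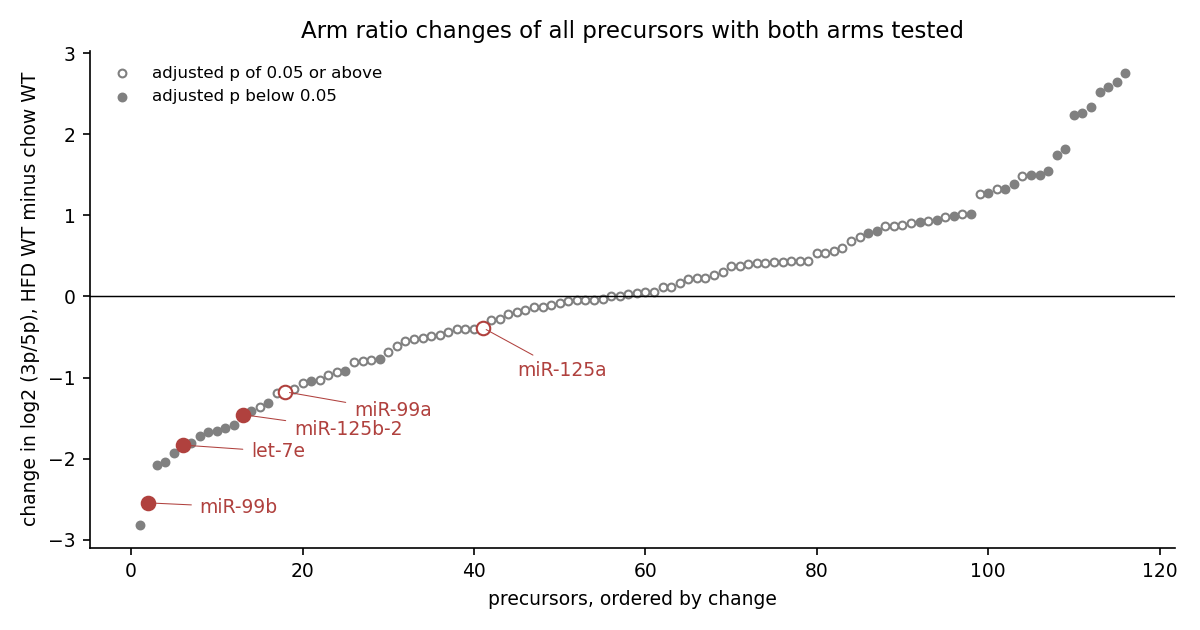
Change in log2 (3p/5p) from chow WT to HFD WT for the 116 precursors with both arms tested, ordered by change; filled points have a limma adjusted p below 0.05, and red points mark miR-99a, miR-99b, miR-125a, miR-125b-2 and let-7e. The point of miR-99b, at -2.54, is the second lowest, while miR-125a, at -0.38, is the 41st lowest.

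Within the 683-base cluster the 3 5p arms also differed in how far they moved. The let-7e-5p level rose from 571 ± 27.3 to 1150 ± 84.5 normalised CPM in HFD WT (SD of 3 libraries, log2 fold change 1.01, SE 0.13, edgeR adjusted p = 1.44e-04), between the changes of miR-99b-5p and miR-125a-5p. With library totals its log2 fold change was 0.28 (edgeR adjusted p = 0.224). The log2 ratio of miR-99b-5p to let-7e-5p was -0.43 ± 0.079 in the chow group and 0.075 ± 0.051 in HFD WT. That of miR-99b-5p to miR-125a-5p was -2.20 ± 0.035 and -1.44 ± 0.094. Neither pair of ranges overlapped, and the exact permutation test gave p = 0.1 for both (p = 0.142 adjusted over 17). The differences of 0.50 and 0.75 stayed between 0.46 and 0.54 and between 0.71 and 0.80 in 8 alternatives.

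**Figure D5:**
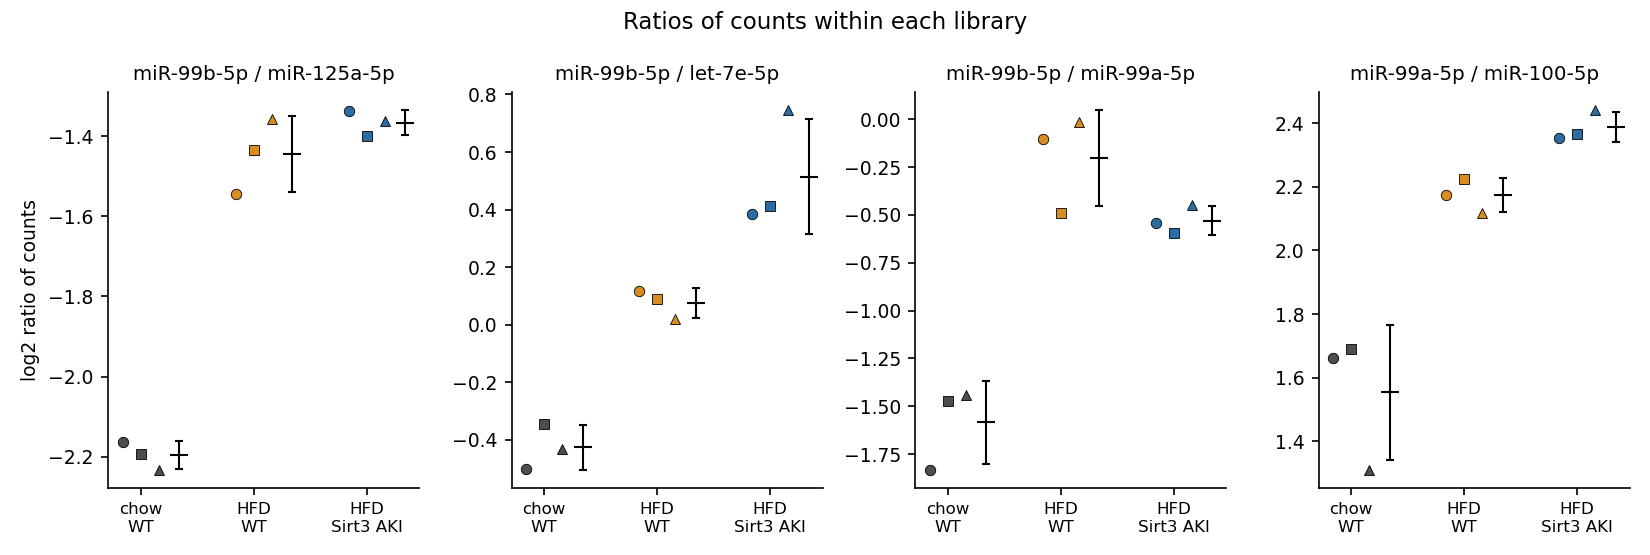
Log2 ratios of counts within each library for miR-99b-5p over miR-125a-5p, let-7e-5p and miR-99a-5p, and for miR-99a-5p over miR-100-5p (circle, replicate 1; square, replicate 2; triangle, replicate 3) with mean and SD; each panel has its own axis. In all 4 panels the chow WT libraries lie below every library of both high fat diet groups.

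In the clusters on chromosomes 16 and 9 the let-7 microRNAs are shared with loci elsewhere, so their levels describe the mature microRNA and not the cluster. Of 6 let-7 arms encoded by the 3 clusters 4 were tested, and 2 of these rose, let-7e-5p and let-7c-5p (0.44, SE 0.10, edgeR adjusted p = 0.00526), while none fell, where 37.7% of all tested microRNAs were called. With library totals this count turned to 0 higher and 2 lower, let-7a-5p (-0.49) and let-7e-3p (-1.51), and let-7c-5p was at -0.29. That scaling called 4.83% of all tested microRNAs higher and 34.5% lower, and the median over all was -0.57. The log2 ratio of miR-100-5p to let-7a-5p was lower in HFD WT by 0.73 and that of miR-100-5p to miR-125b-5p by 1.24. That of miR-99a-5p to miR-125b-5p was lower by 0.62. None of these 3 ratios overlapped between the groups (exact permutation p = 0.1 each, p = 0.142 adjusted over 17).

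The 2 tested partner arms outside the 8 were not called. The level of miR-99a-3p was 44.2 ± 26.2 normalised CPM in the chow group and 20.1 ± 8.49 in HFD WT (SD of 3 libraries, log2 fold change -1.17, edgeR adjusted p = 0.128), and it was called lower with library totals (-1.90). That of miR-125b-1-3p was 5.91 ± 3.77 and 12.9 ± 3.01 (log2 fold change 1.17, edgeR adjusted p = 0.136), from 1 to 3 counts per chow WT library.

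HFD Sirt3 AKI was compared with HFD WT, both on the high fat diet. Replicates 2 and 3 of HFD Sirt3 AKI alone form the smaller batch, so adipose Sirt3 and batch cannot be fully told apart. The call rate was lower in this comparison, with 8.94% of all tested microRNAs called, 1.45% higher and 7.49% lower. Of the members, miR-99a-5p rose and the other 7 did not pass the test. The median log2 fold change of the 8 was 0.35, against -0.021 over all tested microRNAs.

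The level of miR-99a-5p was 1830, 2400 and 2224 normalised CPM in HFD Sirt3 AKI, every one above the HFD WT libraries, whose highest was 1655. It rose by 0.62 on the log2 scale (SE 0.15, edgeR adjusted p = 0.0319), the 4th smallest p among 6 microRNAs called higher. The call was lost with batch as a covariate (0.38, adjusted p = 0.419), within the larger batch, where HFD Sirt3 AKI has replicate 1 alone (0.53, adjusted p = 0.0635), and in a fit of the 2 groups (0.75, adjusted p = 0.0557). It was also lost without chow WT replicate 1 (0.63) or 2 (0.62), HFD WT replicate 1 (0.55) or 3 (0.57), or HFD Sirt3 AKI replicate 3 (0.60), with edgeR adjusted p from 0.0542 to 0.150. With library totals it was called at 0.94. Nearly all calls over the whole tested set were also lost with batch as a covariate and in the fit of the 2 groups.

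The remaining 5p arms had positive log2 fold changes that did not pass the test. They were 0.30 for miR-99b-5p (SE 0.14, edgeR adjusted p = 0.188), 0.41 for miR-100-5p (SE 0.15, adjusted p = 0.110), 0.23 for miR-125a-5p (SE 0.14, adjusted p = 0.330) and 0.54 for miR-125b-5p (SE 0.22, adjusted p = 0.146). Library totals called 3 members higher, miR-99a-5p, miR-99b-5p (0.62) and miR-100-5p (0.73), where 11.4% of all were called, 8.70% higher and 2.66% lower. DESeq2 called 4 members higher, but over all tested microRNAs it also called more, in either direction, than the 8.94% of the main analysis. The ranges of miR-99a-5p and miR-100-5p did not overlap between the groups, as for 26.1% of all tested microRNAs. A fit with batch as a covariate called none of the 8, but it also lost nearly all calls over the whole tested set. In that fit miR-125a-5p and miR-125b-5p turned to -0.054 and -0.065.

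The spread of miR-125b-5p in this group was wide. Its level was 4972 normalised CPM in replicate 1, 10429 in replicate 2 and 7261 in replicate 3. Replicate 1, the library of the larger batch, lay below the 3 HFD WT libraries, and the 2 libraries of the smaller batch lay above them. For miR-125a-5p the values were 3172, 4189 and 4193 in the same order, with replicate 1 again below the lowest HFD WT library. For miR-99b-5p and miR-100-5p replicate 1 was likewise the lowest of the group, at 1256 and 358 normalised CPM, against 1587 and 466 in replicate 2 and 1630 and 409 in replicate 3. Without HFD Sirt3 AKI replicate 1 a total of 3 members were called higher, with miR-125b-5p at 0.77 (edgeR adjusted p = 0.00495). Calls rose over the whole tested set as well, to 102 microRNAs from 37 in the main analysis.

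The 3p arms were not called in this comparison. Their log2 fold changes were 0.43 for miR-99b-3p (edgeR adjusted p = 0.332), -0.64 for miR-125a-3p (adjusted p = 0.319) and -0.16 for miR-125b-2-3p (adjusted p = 0.655). The first of these was at -0.070 with the batch as a term and the last at 0.17 with library totals. No arm ratio of the 116 precursors was called by limma (0%), and 20 had an unadjusted p below 0.05. When both arms needed at least 5 counts in every library, which changes the set of precursors tested, 7 were called. The miR-125b-2 ratio was lower by 0.64 (limma adjusted p = 0.261).

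Against the let-7 microRNAs the members stood higher in HFD Sirt3 AKI. The log2 ratio of miR-99b-5p to let-7e-5p was 0.39, 0.41 and 0.75 in HFD Sirt3 AKI and 0.12, 0.088 and 0.019 in HFD WT, a difference of 0.44. The ratio of miR-99a-5p to let-7c-5p was higher by 0.96 and that of miR-100-5p to let-7a-5p by 0.97, while let-7e-5p to miR-125a-5p was lower by 0.36. None of these 4 overlapped between the groups (exact permutation p = 0.1 each, the smallest possible, and p = 0.189 adjusted over 17). Their signs were kept in 8 alternatives, where the first lay between 0.31 and 0.50, the next between 0.78 and 1.10 and the third between 0.60 and 1.15. The let-7a-5p level itself fell by 0.55 (SE 0.11, edgeR adjusted p = 0.0117), a call lost with library totals (-0.25) and within the larger batch (-0.24). It was also lost without HFD WT replicate 1 (-0.55), 2 (-0.55) or 3 (-0.53), or HFD Sirt3 AKI replicate 3 (-0.54).

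Ratios among the members differed less. For miR-99a-5p to miR-100-5p the log2 ratio was 2.39 ± 0.048 in HFD Sirt3 AKI against 2.17 ± 0.053 in HFD WT, without overlap (exact permutation p = 0.1, adjusted p = 0.189). That of miR-99b-5p to miR-125a-5p was -1.37 ± 0.032 against -1.44 ± 0.094 (exact permutation p = 0.3). The share of miR-99b-5p in the ACCCGUA seed was 36.8 ± 1.32% against 41.6 ± 4.05% (exact permutation p = 0.2). The summed level of that seed was 4053 ± 537 normalised CPM in HFD Sirt3 AKI, and that of CCCUGAG was 11664 ± 3266 (SD, n = 3).

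Relative to chow WT, the group HFD Sirt3 AKI had 4 members called higher and 1 lower, where 39.9% of all tested microRNAs were called, 20.3% higher and 19.6% lower. The comparison shares its libraries with the 2 above. The largest rise was again that of miR-99b-5p, from 426 ± 43.8 to 1491 ± 205 normalised CPM (SD, n = 3; log2 fold change 1.81, SE 0.14, edgeR adjusted p = 5.59e-06), the 2nd smallest p of 84 microRNAs called higher. The others were miR-125b-5p (1.28, SE 0.22), miR-125a-5p (0.98, SE 0.14) and miR-99a-5p (0.75, SE 0.15). Of these 4 increases, all but that of miR-99a-5p (0.34) were also called with library totals, which called 41.1% of all, 9.66% higher and 31.4% lower. The ranges of 6 of the 8 did not overlap, as for 49.3% of all. The decrease was in miR-125b-2-3p (-0.86, SE 0.21, edgeR adjusted p = 0.00712), not called within the larger batch (-0.67), with the batch as a term (-0.87) or without a filter (-0.61).

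The member levels of miR-100-5p in the chow group and HFD Sirt3 AKI overlapped, at 434 ± 27.0 and 411 ± 54.1 normalised CPM (log2 fold change -0.078, edgeR adjusted p = 0.729). All 8 members together took 0.970 ± 0.0895% of counts in the chow group, 0.908 ± 0.0423% in HFD WT and 1.54 ± 0.513% for HFD Sirt3 AKI. Among the HFD Sirt3 AKI libraries that share ran from 1.09% to 2.10%.

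The 3 microRNAs whose profile over the 9 libraries was most like each 5p member were named by the root mean square difference of centred log2 normalised CPM, among 161 candidates with a mean of at least 100. For miR-99b-5p these were miR-150-5p (0.19), miR-342-3p (0.22) and miR-1198-5p (0.23), where the median candidate differed by 0.80. The first 2 are known from lymphocytes. However, miR-155-5p of the lymphocyte list below fell in HFD WT over chow WT (log2 fold change -1.71, edgeR adjusted p = 8.11e-06). For miR-125a-5p they were miR-351-5p (0.11), miR-128-3p (0.13) and miR-423-3p (0.13). For miR-125b-5p they were miR-132-3p (0.15), miR-146b-5p (0.18) and miR-199a-3p (0.18), whose counts equal those of miR-199b-3p in every library. For miR-99a-5p they were miR-143-3p (0.25), miR-532-5p (0.25) and miR-31-5p (0.30), and for miR-100-5p they were miR-200c-3p (0.10), miR-181a-5p (0.15) and miR-194-5p (0.17). All points share the 9 libraries and their scaling, so this likeness is a description.

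MicroRNA markers of possible source cells moved between the groups as well. The summed level of 5 red cell microRNAs ran from 222563 to 237593 normalised CPM in the chow group and from 452679 to 534590 in HFD WT, and 3 of them were called higher. That of 3 lymphocyte microRNAs ran from 5003 to 5197 and from 9665 to 11198, with 2 called higher (miR-150-5p and miR-342-3p) and 1 lower (miR-155-5p). That of 5 epithelial microRNAs ran from 8727 to 9263 and from 969 to 1106, with 4 called lower. Of the other lists, 2 of 3 myeloid and platelet, 2 of 2 endothelial, 2 of 3 striated muscle and 1 of 3 brain microRNAs were called higher, and 1 of 3 hepatocyte and 1 of 2 stromal microRNAs lower, where 37.7% of all tested microRNAs were called. These counts rest on TMM scaling. As a share of all counts, the myeloid and platelet sum was lower in HFD WT, at 1.62% to 1.67% against 1.93% to 2.08% for chow WT. The shares of the striated muscle, brain and endothelial sums overlapped between these groups, while the red cell and lymphocyte shares were higher and the epithelial, hepatocyte and stromal shares lower, without overlap. Against HFD WT, the hepatocyte sum for HFD Sirt3 AKI ran from 9294 to 31775, where HFD WT had 7616 to 8018, with 1 of 3 called higher. In the same comparison 2 of 5 red cell, 2 of 2 endothelial and 1 of 3 myeloid and platelet microRNAs were called lower. Of all tested microRNAs 8.94% were called there, 1.45% higher and 7.49% lower. None of the markers was at 0 in all libraries of a group. Their part in the members' changes was not tested. Fewer vesicles of a source and less of a microRNA per vesicle cannot be told apart here.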

How the data were processed

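Serum vesicles were isolated by precipitation (Total Exosome Isolation Reagent) and libraries followed Illumina's standard protocols, per the labels' protocols. Bowtie 0.12.2 and the build mm8 are named without a role, per the submitters' processing notes. Trimming, the microRNA reference and the counting program were not given in the sources used. The deposited count tables hold the authors' whole-number counts per mature microRNA. The deposited TPM table holds the same counts per 1000000 of the library total, with no length term, and differed from that quotient by at most 5.00e-05.

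The members and the lists of related microRNAs were chosen with earlier results of these data known. Tests of counts used edgeR 4.0.16 under R 4.3.3 (filterByExpr with a minimum count of 10, TMM, quasi-likelihood fit of group means over all 9 libraries, Benjamini-Hochberg adjustment over 414 microRNAs). The 755 microRNAs not tested held 0.0543% of counts. Every adjusted p of a fold change is from edgeR unless named otherwise. Arm ratios were tested with limma 3.58.1, and ratios between members by exact two-sided permutation. Alternatives were DESeq2 1.42.0 and its size factors, library totals, no filter, limma on log2(TPM + 1) and log2(TPM + 10), fewer groups, the batch, the replicate number and each library left out. Both model scripts were first tested on simulated data. Named microRNAs are the members, partner arms, let-7 of the same clusters, those with a shared seed, the 3 of most similar profile and the lymphocyte list.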

Additional observations from a re-analysis of the deposited data

How the results depend on the processing

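Values are log2 changes, or numbers of calls, under settings that changed a direction, a call or a count by over 1.5 times; the cause was not tested. In HFD WT over chow WT, library totals in edgeR, limma on log2(TPM + 1) and limma on log2(TPM + 10) each called 1 member higher. They gave -0.60, -0.60 and -0.60 for miR-99a-5p, -0.20, -0.19 and -0.12 for miR-125a-3p, -0.29, -0.29 and -0.29 for let-7c-5p, -0.49, -0.49 and -0.49 for let-7a-5p, and -0.047, -0.061 and -0.057 for miR-351-5p. Library totals called 4.83% of all tested microRNAs higher in this comparison and 34.5% lower. Without a filter 0 members were called lower, and leaving out single libraries gave 0 to 3. The difference between the groups in the log2 ratio of miR-125a-5p to miR-125b-5p then ran from -0.028 to 0.060. Adding 5 to each arm called 66 arm ratios in place of 39, with miR-125a at -1.19. Requiring at least 5 counts in every library, which changes the set of precursors tested, called 24.

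In HFD Sirt3 AKI over HFD WT, the number of members called higher was 3 with library totals and with both limma fits, 2 without a filter, 4 with DESeq2, and 0 with the 2 groups alone, with batch as a term and within the larger batch, where HFD Sirt3 AKI keeps 1 library that is assumed to vary like the others. Left-out libraries gave 0 to 3. Library totals called 8.70% of all tested microRNAs higher in this comparison. Of all tested microRNAs, 37 were called in the main analysis, 24 with DESeq2 size factors, 61 with DESeq2, 3 with the 2 groups alone, 1 with batch as a term, 23 within the larger batch and 13 to 102 with single libraries left out, the highest without HFD Sirt3 AKI replicate 1. Batch as a term gave -0.070 for miR-99b-3p, -0.054 for miR-125a-5p and -0.065 for miR-125b-5p. The library totals and the limma fits gave 0.17, 0.14 and 0.12 for miR-125b-2-3p and 0.18, 0.16 and 0.16 for let-7e-5p. Of arm ratios, 7 were called with at least 5 counts in every library, a different set of precursors. The change in the miR-99b ratio was -0.096 with batch as a term and -0.096 within the larger batch, and -0.085 to 0.28 with libraries left out. The change in the let-7e ratio was -0.0076 and -0.0076, -0.0039 with 5 added to each arm, and -0.032 to 0.26. Within the larger batch the ratio of miR-125a-5p to miR-125b-5p differed by 0.011.

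In HFD Sirt3 AKI over chow WT, library totals and both limma fits called 3 members lower and the unfiltered fit 0. Library totals called 31.4% of all tested microRNAs lower there. Without a filter miR-100-5p was at 0.16 and miR-125a-3p at 0.13, and miR-125a-3p was at 0.37 with batch as a term and 0.57 within the larger batch. With libraries left out they ran from -0.097 to 0.035 and from -0.45 to 0.32. Arm ratios called were 63 with 5 added, 18 with batch as a term and 18 within the larger batch. The change in the miR-125a ratio was -1.34 with the 2 groups alone, -0.49 with batch as a term and -0.49 within the larger batch. It was -1.77 to -0.93 with libraries left out.

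A replicate block called 154, 31 and 161 of all tested microRNAs in the 3 comparisons, against 156, 37 and 165 without it, and the same numbers of members. Deviations of same-numbered libraries correlated at -0.074 to 0.18, so the numbers were not taken to pair the samples. Low counts of miR-125a-3p, let-7e-3p and miR-125b-1-3p in the shallow chow libraries limit their precision.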
